A study of Xenopus tropicalis with 36 samples.

Results

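The stage change of *t*/*t2* morphants was the difference in polyadenylated RNA between stage 34 and stage 26 of *X. tropicalis* embryos injected with morpholinos (MOs) against the Brachyury paralogs *t* and *t2*. Its members were the 6 libraries labelled as *t*/*t2* MO, 3 at each stage, out of the 36 libraries of the series, and every named gene of the count table was measured in them. The 3 libraries of a stage came from frogs D, E and F, so each library at stage 34 had a library at stage 26 from the same frog. Each library was made from 5 to 10 pooled sibling embryos kept at 25 °C, so it gives the mean of a clutch and no spread between single embryos. The labels give the embryos as out-bred Nigerian. The p-values measure how far differences between groups varied over the 3 clutches of an experiment. Each frog's own level was removed first, and all libraries fitted together were pooled for it.

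The *t*/*t2* MO embryos had received 18 ng of MO at the 1-cell stage, a mix of splice-blocking and translation-blocking MOs for both paralogs, and carried no mutation. Embryos of the same clutches and stages were left uninjected or received 18 ng of a standard control MO (cMO). A separate experiment gave the same stages for null embryos (KO, te1.2D/e1.2D at *t* and t2e3.7D/e3.7D at *t2*), for heterozygous siblings and for wild-type siblings, from 3 crosses (1, 2 and 9) of te1.2D/+ t2e3.7D/+ frogs, with no injection. Libraries were made from whole embryos, so fewer cells of a type and less RNA per cell cannot be told apart in any value below.

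Brachyury is a T-box transcription factor that is switched on in the early mesoderm and stays on in the notochord and the tailbud, where it is needed for the notochord, the posterior somites and the tail. An MO is an antisense oligomer that blocks splicing or translation of an mRNA, so the protein is lost while the transcript can still be made. Over these tailbud stages the frog embryo lengthens its tail, starts its heartbeat, fills its circulation with red blood cells, and differentiates liver, lens, retina and pigment cells.

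The 6 libraries held 33124048 to 37193681 read pairs assigned to genes, against 30225504 to 52401214 over all 36, so depth did not separate the stages. Deviations from the group means were correlated between both libraries of a frog (Pearson's r across genes 0.322, 0.254 and 0.441 for frogs D, E and F), and the frog was kept as a block in the fit. A gene was called when edgeR's quasi-likelihood test gave an adjusted p of at most 0.1 and a change of at least 1.5-fold, and when its mean normalised read count over the uninjected, cMO, wild-type and heterozygous libraries was above 7. The *t*/*t2* MO libraries took no part in that filter. Of 25774 genes, 17979 passed it. Read counts below are normalised read counts (TMM scaling), given in the order of frogs D, E and F, and changes are log2 values of stage 34 over stage 26 with their standard errors.

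The targets came first. *t* (Xetro.E00956, scaffold 5 of assembly 7.1, 72053579 to 72062232, plus strand) had 578, 510.2 and 689 at stage 26 and 182, 165 and 202 at stage 34 in *t*/*t2* MO embryos. Uninjected embryos had 938, 882 and 1027 at stage 26 and 350.3, 359.9 and 382 at stage 34, above the *t*/*t2* MO level in every clutch and at each stage. *t* fell by 1.71 ± 0.12 on the log2 scale in the morphants (edgeR adjusted p = 6.2e-10) and changed by -1.36 in uninjected and -1.23 in cMO embryos. *t2* (Xetro.E00957, scaffold 5, 72091808 to 72101743, plus strand) had 59.5, 17.5 and 37.6 at stage 26 and 4.63, 13.6 and 13.9 at stage 34, while uninjected embryos had 1480.0, 1319.6 and 1292 at stage 26 and 719, 664 and 827 at stage 34. *t2* was therefore low in all 6 morphant libraries, and its fall of 1.86 ± 0.36 (edgeR adjusted p = 0.00026) rests on few read pairs. These counts are no full check of the labels, because transcripts of a gene can remain when its translation is blocked.

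The transcriptome of *t*/*t2* MO embryos changed widely over these stages. 5639 of 17979 genes (31.4%) were called, of which 3678 rose (20.5%) and 1961 fell (10.9%). Of the called genes 5537 moved the same way in 3 of 3 clutches, which is no separate support, since the same clutches gave the calls. Large changes were mostly increases: 821 genes rose at least 4-fold and 140 fell as much, and at 16-fold the numbers were 167 and 10. With library totals alone as the scaling, the median log2 change of all genes was 0.145, against 0.0074 with TMM. The split became 4446 genes higher and 1311 lower (77.2% higher, against 65.2%), so changes near 1.5-fold depend on the scaling.

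Among the 194 called rises with at most 3 read pairs in each library at stage 26 (103 with a symbol), those with the highest level at stage 34 were followed. *cyp24a1*, which encodes the mitochondrial enzyme that inactivates vitamin D, had 1 read pair at stage 26 and 470 at stage 34 summed over the clutches, a depth-corrected ratio of 432 (77.2 to 17100); the brackets give the exact binomial 95% interval, which covers counting error only. Its normalised counts at stage 34 were 37.0 in frog D, 276 in frog E and 155 in frog F, against at most 1.09 at stage 26, so the stages did not overlap and the clutches differed. *adrb1*, the beta-1 adrenergic receptor, had 2 read pairs at stage 26 and 340 at stage 34, a ratio of 156 (43 to 1300). *opn1lw*, a cone opsin, had 3 read pairs at stage 26 and 250 at stage 34, a ratio of 76.7 (25.9 to 374). The ratio was 231 (41.1 to 9160) for *mogat2.2*, of the acylglycerol acyltransferases, 94.8 (25.9 to 788) for *rgs5*, a regulator of G-protein signalling known from pericytes, 41.7 (18.9 to 115) for *thnsl2* and 35 (13.4 to 130) for *dnajc22*.

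Fewer genes went the other way. Of 11 called falls with at most 3 read pairs in each library at stage 34, 7 had a symbol. *mespb*, a transcription factor of the segmenting paraxial mesoderm, had 87 read pairs at stage 26 and 1 at stage 34, a ratio of stage 26 to stage 34 of 94.6 (16.5 to 3780). *msgn1*, a regulator of presomitic mesoderm, had 55 read pairs at stage 26 and 2 at stage 34, a ratio of 29.9 (7.89 to 253), and *mesp2*, a segmentation gene, had 21 read pairs at stage 26 and 1 at stage 34, a ratio of 22.8 (3.67 to 944). All 3 presomitic genes were thus down to 1 or 2 read pairs in the stage 34 morphants. The ratio was 18.7 (8.29 to 52) for *ventx3.2*, 16.8 (7.45 to 47.1) for the keratin gene *krt17*, 5.59 (2.45 to 14.9) for *cdca9* and 5.8 (2.39 to 17) for *tectb*.

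Of genes with a mean of at least 10 at stage 26 and 50 at stage 34, the largest rises were led by genes of the liver. *rbp4*, the plasma carrier of retinol, had 0, 8.74 and 28.5 at stage 26 and 5149, 7023 and 7869 at stage 34 and rose by 9.11 ± 0.36 (edgeR adjusted p = 2.9e-13), a fitted size that rests on the few read pairs at stage 26, with none in frog D. *ttr*, the carrier of thyroid hormone, had 200.3, 123 and 109 at stage 26 and 13591, 11405 and 10096 at stage 34 and rose by 6.34 ± 0.15 (edgeR adjusted p = 8.5e-17). *fgg*, a fibrinogen chain, had 22.8, 17.5 and 22.8 at stage 26 and 2918, 1602 and 2935 at stage 34 and rose by 6.87 ± 0.36. In each of them every library at stage 34 exceeded every library at stage 26. The other liver genes were *fga*, a second fibrinogen chain (5.28 ± 0.29), *apob* (5.03 ± 0.30) and *apoa1* (4.75 ± 0.20), apolipoproteins, and *masp2*, a protease of the complement lectin pathway (4.89 ± 0.33). *tnnt2*, cardiac troponin T, had 11.9, 29.5 and 17.1 at stage 26 and 696, 589 and 708 at stage 34 and rose by 5.09 ± 0.31, and *pdzk1*, a scaffold of epithelial transporters, rose by 4.57 ± 0.22. *pck1*, the rate-limiting enzyme of gluconeogenesis, had 672, 1777 and 1127 at stage 26 and 14703, 64812 and 40964 at stage 34 and rose by 5.02 ± 0.38.

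The largest falls included heat shock, metalloprotease and keratin genes. *hsp70*, an inducible heat shock protein, had 1972, 5200.1 and 9695 at stage 26 and 325, 257 and 441 at stage 34 and fell by 3.77 ± 0.47 on the log2 scale, with clutches spread widely at stage 26. *hsp90aa1.2*, the inducible cytosolic Hsp90, had 3799, 4601 and 5549 at stage 26 and 302, 417 and 542 at stage 34 and changed evenly in the 3 clutches (-3.50 ± 0.16, edgeR adjusted p = 2.2e-12). The keratin gene *krt* had 33006, 30413 and 47653 at stage 26 and 3434, 4281 and 3876 at stage 34 (-3.22 ± 0.20). None of the 3 had overlapping stages. *tll1*, a metalloprotease of the tolloid family, had 6494, 5662 and 9025 at stage 26 and 1479, 225 and 722 at stage 34 (-3.28 ± 0.38), with frog D keeping the highest level at stage 34. *tbx6*, a T-box gene of the presomitic mesoderm, changed by -3.30 ± 0.39. The others were *ctbs*, a chitobiase (-3.34), *post* (-2.99) and *chst4*, a carbohydrate sulfotransferase (-2.98), with *baat* (-3.51) and *tll2* (-3.15), whose exons overlap another gene in a library type that does not keep the strand, so that their reads may be shared.

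**Figure D1:**
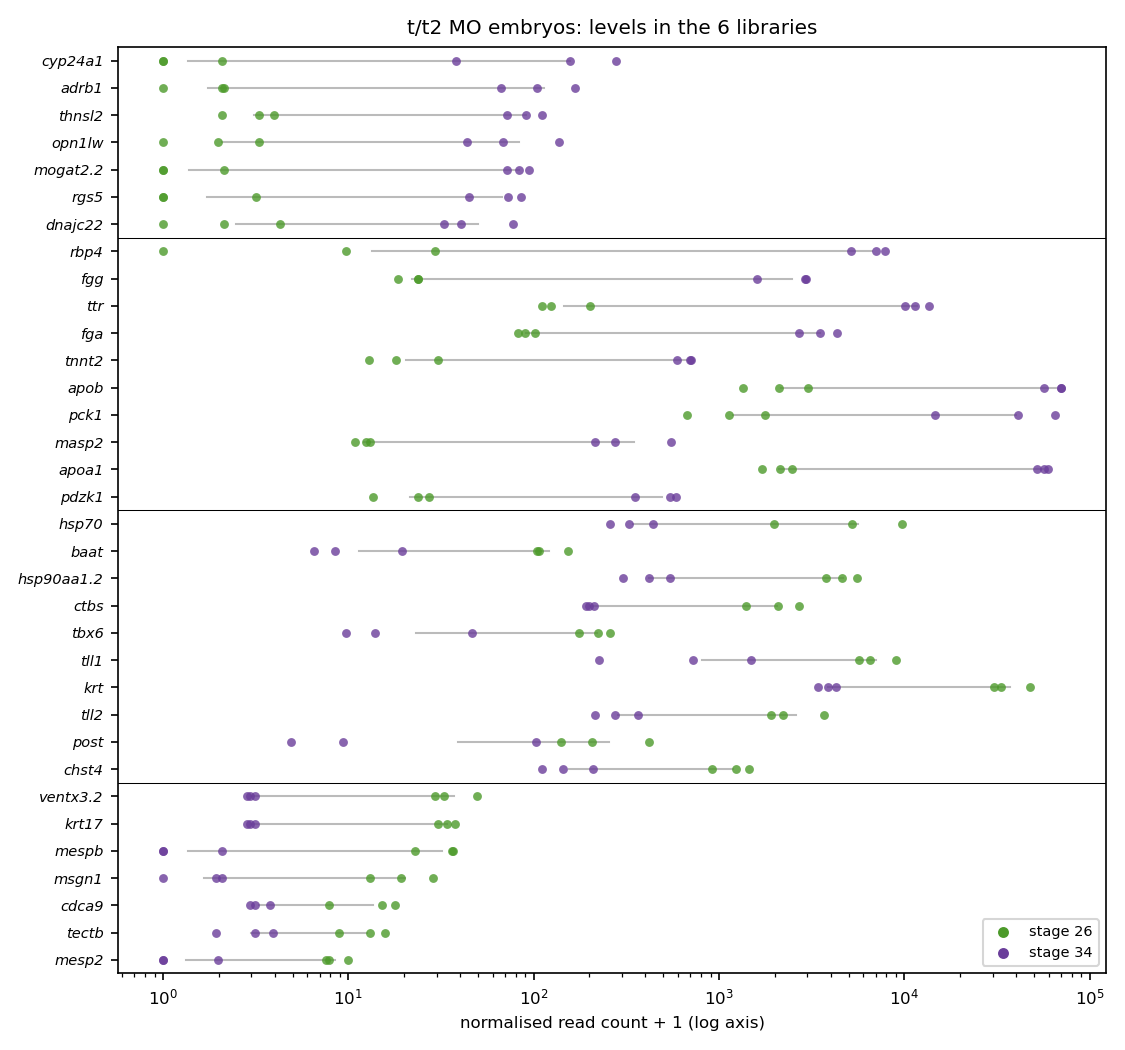
Normalised read count plus 1 (log axis) of genes followed in *t*/*t2* MO embryos, with 1 point per library, green at stage 26 and purple at stage 34, and a grey line joining the means. From top to bottom the blocks are genes near 0 at stage 26, the 10 largest rises, the 10 largest falls and genes near 0 at stage 34. *rbp4* moved from at most 28.5 to at least 5149, and the 3 clutches of *cyp24a1* were spread from 37.0 to 276 at stage 34.

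The highest counts, which are not corrected for gene length, belonged to *krt5.7*, *eef1a1*, *hspa8* and *actg1* at each stage, with *cirbp* at stage 26 and *c3* at stage 34 as the next. *c3*, the central complement component, had 179357, 171450.0 and 135457 at stage 26 and 350034, 292995 and 260642 at stage 34 and rose by 0.88 ± 0.12 (edgeR adjusted p = 3.7e-06), its exons overlapping a second gene. *krt5.7* fell by 0.66 on the log2 scale, a change of -0.58 without frog F and -0.52 with library totals as the scaling (both under 1.5-fold), and its exons also overlap another gene. *eef1a1*, the translation elongation factor, with -0.23, was not called.

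Tissue gene lists described which parts of the embryo these genes belong to. Defining markers of muscle, heart, blood, nervous system, eye, kidney, liver, epidermis, notochord and myeloid cells were all above 0 in morphants, with means from 12.1 for *fabp2* at stage 26 to 85267 for *actc1*. Lists are given as members past the filter, the number that rose and fell, and the median log2 change, against 20.5%, 10.9% and 0.0074 for all genes. No list was tested as a set.

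Lists of late-forming organs had more members that rose in the morphants than the share over all genes. Of 91 neuron and synapse genes 56 rose (61.5%) and 2 fell (median 0.84). *neurod6*, a neuronal differentiation factor (3.66, from near 0), was among those with the largest rises, and *slc6a3*, the dopamine transporter, had 204, 159 and 140.1 at stage 26 and 61.1, 41.7 and 42.8 at stage 34 and changed by -1.81 ± 0.28. Of 29 red blood cell genes 20 rose (69%, median 1.39): *hbz*, an embryonic globin, had 837, 683 and 427 at stage 26 and 8467, 8117 and 5238 at stage 34 and rose by 3.51 ± 0.21, and *hbd*, another globin, rose by 2.84 ± 0.19. The 1 that fell was *tal1*, the transcription factor that specifies blood, with 3773, 4403 and 5335 at stage 26 and 2101, 2047 and 2678 at stage 34 (edgeR adjusted p = 2.3e-06). Of 21 pigment cell genes 13 rose (61.9%) and 2 fell (median 1.08), with *tyr*, tyrosinase of melanin synthesis, at 53.5, 202 and 70.6 at stage 26 and 1709, 2192 and 1815 at stage 34 (4.24 ± 0.30). Of 30 pituitary and neuropeptide hormone genes 19 rose (63.3%) and 2 fell (median 1.03), among them *grp*, gastrin-releasing peptide (4.05), while *tshb*, the thyrotropin beta chain, fell by 1.95 on the log2 scale. Of 43 endoderm, liver and pancreas genes 24 rose (55.8%) and 7 fell (median 0.81), with *frzb2* (-2.54) and *cdx1* (-2.03) as the largest falls.

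In eye, vessel and connective tissue lists the share that rose was also above the 20.5% of all genes. Most members did not rise by the test, except for crystallins, and each list also held falls. Of 52 lens and retina genes 24 rose (46.2%) and 3 fell (median 0.46), and of 7 crystallins 6 rose (median 2.83). *crybb1*, a lens crystallin, had 99.2, 63.4 and 84.3 at stage 26 and 804, 889 and 798 at stage 34 and rose by 3.30 ± 0.24. The only crystallin that fell was *crybg3* (-0.73), a member of the wider family that is not confined to the lens. Of 32 endothelial genes 15 rose (46.9%) and 4 fell (median 0.43): *lyve1*, a receptor of lymphatic endothelium, had 14.9, 13.1 and 10.2 at stage 26 and 148, 98.8 and 110.3 at stage 34 and rose by 3.19 ± 0.25, whereas *etv2*, which specifies endothelium early, had 1671, 1699.9 and 1583 at stage 26 and 579, 683 and 558 at stage 34 and changed by -1.45 ± 0.19. Of 54 fibrillar and basement membrane matrix genes 21 rose (38.9%) and 9 fell (median 0.37), with the collagen *col3a1* up by 2.86 ± 0.15 and the microfibril gene *fbn1* at -1.94 ± 0.19. Of 29 cartilage and skeletal matrix genes 9 rose (31%) and 6 fell (median 0.33), with *dcn*, decorin, at 45.6, 36.1 and 66 at stage 26 and 254, 267 and 229 at stage 34, a rise of 2.33 ± 0.24.

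Of 67 immune and inflammatory genes 31 rose (46.3%) and 1 fell (median 0.52). *casp1*, the inflammatory caspase, led them (4.38), and *c8b*, a terminal complement component, was the 1 that fell (-0.63, and -0.53, under 1.5-fold, without frog D). Of 30 myeloid genes 7 rose (23.3%) and 1 fell (median 0.20), with *mmp7*, a matrix metalloprotease, at 1126, 1159 and 1103 at stage 26 and 2703, 3651 and 4055 at stage 34 (1.63 ± 0.23). *spib*, a transcription factor of early myeloid cells, was the 1 that fell (-0.59, and -0.49 and -0.54, under 1.5-fold, without frogs D and E). Of 45 stress response and cell death genes 10 rose (22.2%) and 5 fell (median 0.08), against 20.5% and 10.9% of all genes.

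Mesoderm lists held falls, and all but the paraxial and tailbud list and the Hox list also held rises. Of 38 paraxial and tailbud mesoderm genes none rose and 22 fell (57.9%, median -0.71). *mespa*, a segmentation gene, had 137, 108 and 115 at stage 26 and 1.85, 1.94 and 6.42 at stage 34 and was at most 6.42 at stage 34 in every clutch. Of 38 Hox genes none rose and 15 fell (39.5%, median -0.53), the largest falls being those of the anterior genes *hoxd1* (-1.58 ± 0.17) and *hoxb1* (-1.48 ± 0.19). Of 26 notochord and floor plate genes 3 rose (11.5%) and 6 fell (23.1%, median -0.29), with *foxa4*, a forkhead factor of notochord and floor plate, at 938, 658 and 597 at stage 26 and 307, 212 and 247 at stage 34 (-1.52 ± 0.14). Of 69 skeletal muscle genes 8 rose (11.6%) and 18 fell (26.1%, median -0.27). *chrng*, the fetal subunit of the muscle acetylcholine receptor, had 2434, 1721 and 1945 at stage 26 and 500.1, 413 and 522 at stage 34 (-2.10 ± 0.09), and the sarcomere genes *tcap* (3.59) and *mybpc2* (2.89) rose from mean counts under 10, of which *tcap* was not called without frog F (2.14, edgeR adjusted p = 0.14). Of 33 heart genes 10 rose (30.3%) and 6 fell (18.2%, median -0.11; 0.022 with library totals as the scaling): *myh6*, the atrial myosin heavy chain, had 862, 1071 and 567 at stage 26 and 7386, 6977 and 7429.5 at stage 34 and rose by 3.15 ± 0.20, whereas *myh7* had 1929.5, 1728 and 1435 at stage 26 and 383, 364 and 277 at stage 34 and fell by 2.32 on the log2 scale. Of 39 pronephros genes 15 rose (38.5%) and 9 fell (23.1%, median 0.011). The amino acid transporter *slc6a19* rose from a mean of 3.97 to 121, and the kidney specification gene *pax8* had 983, 1033 and 1076 at stage 26 and 339.9, 347 and 375 at stage 34 (-1.56 ± 0.10).

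Proliferation and surface ectoderm lists had more members that fell than rose, though most members were not called. Of 93 cell cycle genes 2 rose and 42 fell (45.2%, median -0.55), the highest share of falls among lists of over 40 members. Shorter lists had higher shares, among them 57.9% of the 38 paraxial and tailbud genes and 47.4% of the 19 keratins. *mcm2*, a subunit of the replicative helicase, had 10791, 11812 and 12436 at stage 26 and 5109, 4908 and 5407 at stage 34 and fell by 1.20 on the log2 scale, and the risers were *ccna1*, a cyclin of germ cells (2.34 ± 0.25), and *cdk6*, a G1 kinase (1.29 ± 0.11). Of 42 neural progenitor genes 4 rose and 9 fell (21.4%, median -0.33), and *egr2*, a hindbrain segment gene, had 784, 847 and 1082 at stage 26 and 254, 288 and 293 at stage 34 (-1.70 ± 0.12). Of 33 glia and neural crest genes 6 rose and 10 fell (median 0.048), with *ednrb*, the endothelin receptor of crest cells, up by 2.07 ± 0.15 and *pmp22*, a myelin protein, at -0.82 ± 0.15. Of 44 multiciliated cell genes 4 rose and 16 fell (36.4%, median -0.54). *tuba1a*, an alpha tubulin, had 2502, 1753 and 2585 at stage 26 and 506, 452 and 410.1 at stage 34 (-2.32 ± 0.18), and *dnah11*, an axonemal dynein, had 903, 797 and 867 at stage 26 and 391, 396 and 406 at stage 34 (-1.12 ± 0.13). Of 46 ionocyte and mucus-secreting epidermis genes 7 rose and 17 fell (37%, median -0.51), and of 19 keratins 4 rose and 9 fell (47.4%, median -0.38). Of 8 hatching and cement gland genes none rose and 4 fell (median -0.84): *uvs.2*, the hatching enzyme, had 397, 559 and 345 at stage 26 and 0.926, 6.78 and 5.35 at stage 34, and *ag1*, a cement gland protein, fell by 1.66 on the log2 scale. Of 77 cytoplasmic ribosomal protein genes only *rpl38* was called (0.61 ± 0.21, and 0.48 and 0.57, under 1.5-fold, without frogs E and F), at a list median of 0.27.

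Lists taken from Gene Ontology terms, which the study assigned to genes by sequence similarity, stand beside those above. In the morphants 101 rose and 27 fell of 316 for synaptic transmission (median 0.23), 82 rose and 18 fell of 207 for visual perception (median 0.36), 45 rose and 12 fell of 164 for immune response (median 0.16), 66 rose and 11 fell of 175 for inflammatory response (median 0.30) and 14 rose and 0 fell of 17 for oxygen transport (median 1.96). The term for lens development, with 8 that rose and 6 that fell of 41 (median -0.20), had a median of the opposite sign to the lens and retina list. For the other terms 28 rose and 18 fell of 111 for muscle contraction (median 0.0057), 39 rose and 26 fell of 204 for heart development (median 0.05), 10 rose and 29 fell of 94 for somitogenesis (median -0.22), 7 rose and 14 fell of 92 for DNA replication (median -0.30), 34 rose and 18 fell of 130 for extracellular matrix organization (median 0.10), 69 rose and 25 fell of 280 for cell adhesion (median -0.017), 16 rose and 9 fell of 60 for potassium ion transport (median 0.10), 53 rose and 29 fell of 291 for the apoptotic process (median -0.009) and 6 rose and 2 fell of 121 for translation (median 0.061), and 1 of 3 fell for cilium movement.

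**Figure D2:**
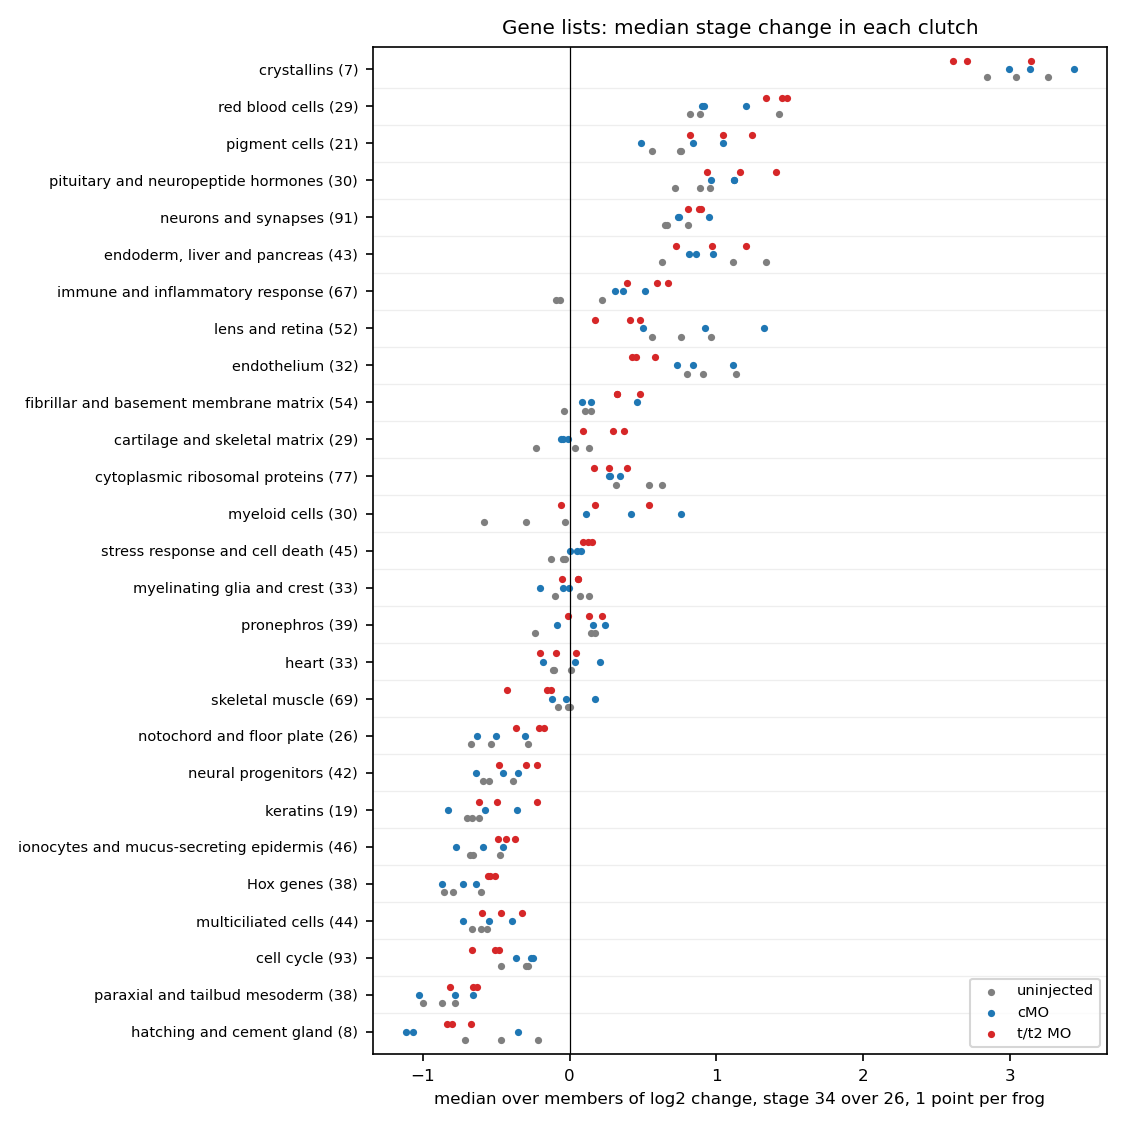
Median over list members of the log2 change from stage 26 to stage 34 (x axis), with 1 point per clutch for uninjected (grey), cMO (blue) and *t*/*t2* MO embryos (red); the number of members past the filter is in brackets, and lists are ordered by the *t*/*t2* MO median. In morphants the median over all 3 clutches ran from -0.84 for the hatching and cement gland list to 2.83 for crystallins.

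Whether this stage change differed from that of normal embryos was asked first with uninjected siblings. In these 5952 genes were called (33.1%), 3701 higher (20.6%) and 2251 lower (12.5%), and 3904 genes were called in the same direction in both, 69.2% of the morphant calls and 65.6% of the uninjected calls. Across the 17979 genes the log2 changes had Pearson's r = 0.845 (Spearman's rho = 0.765), a description over genes, which are not independent replicates. 43 genes were called in opposite directions. The difference of the changes, tested as an interaction, was called for 1534 genes (8.53%), 892 with a higher (4.96%) and 642 with a lower log2 change in morphants (3.57%). This count rests on 3 clutches: 5289 genes had an unadjusted p under 0.05, and the calls numbered 638 without frog F, 829 without frog E and 1837 without frog D.

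A higher log2 change in the morphants came about in several ways. Of the 892 genes, 268 rose in morphants and were not called in uninjected embryos, 98 rose in both and 32 rose in morphants while they fell in uninjected embryos. Another 265 were not called in morphants and fell in uninjected embryos, 82 fell in both, and 147 were called in neither. Of the 642 genes with a lower change, 225 rose in uninjected embryos and were not called in morphants, 135 fell in morphants and were not called in uninjected embryos, 133 rose in both, 26 fell in both, 11 fell in morphants and rose in uninjected embryos, and 112 were called in neither.

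Embryos injected with cMO had 5891 called genes (32.8%), 3739 higher (20.8%) and 2152 lower (12%). Against their change that of the morphants differed at 1229 genes (6.84%), 690 higher (3.84%) and 539 lower (3.00%). Without frog E 276 were called, without frog F 418 and without frog D 1491, and with library totals as the scaling 70.2% of the calls were higher, against 56.1%. Both differences use the same *t*/*t2* MO libraries, so each comparison's values are given side by side. The share of read pairs that aligned to no gene was 30.88 to 33.96% in morphants and 27.27 to 34.01% over all 36 libraries, with means at stage 26 of 32.4% in morphants, 29.8% in uninjected and 30.3% in cMO embryos; its part in these differences was not tested.

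**Figure D3:**
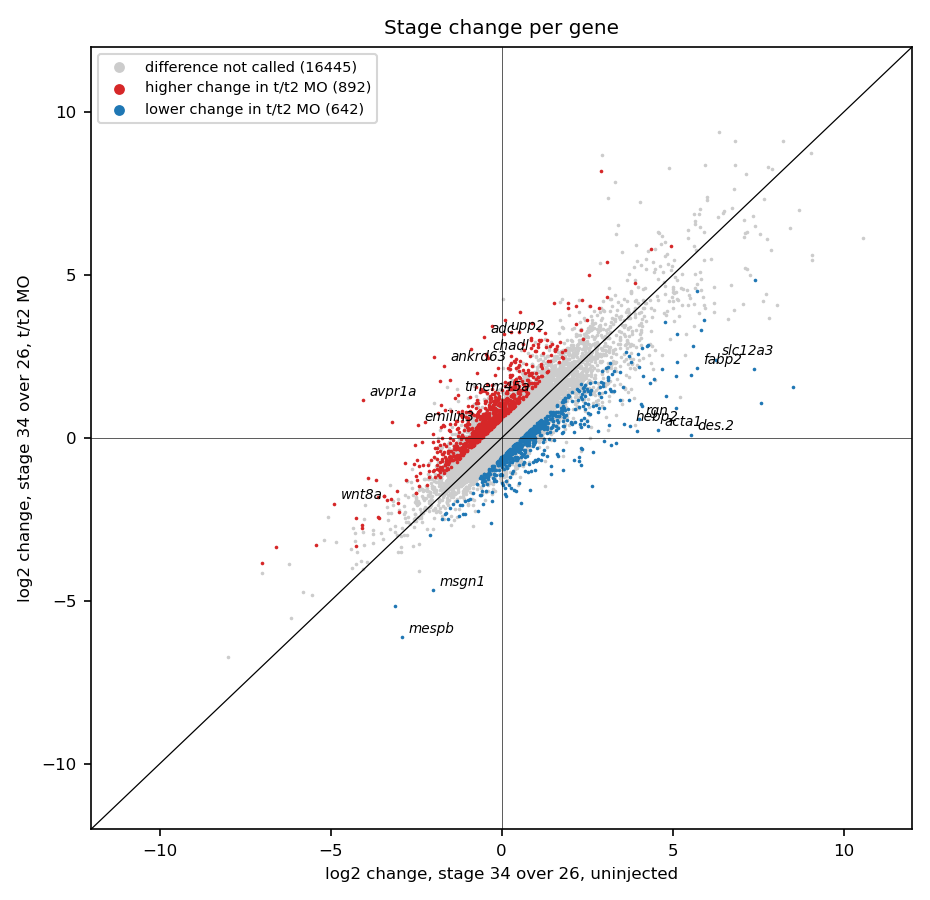
Log2 change from stage 26 to stage 34 in uninjected (x axis) and *t*/*t2* MO embryos (y axis), 1 point per gene for 17979 genes; the diagonal marks equal change. Red points are the 892 genes with a higher and blue points the 642 genes with a lower change in morphants, and the 16 labelled genes are described individually in the text.

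Among genes called against both controls, with a mean normalised count of at least 50 over the 18 libraries and clutches that did not overlap, the 8 largest positive and 8 largest negative differences were followed, out of 305 and 241. Part of the positive set consisted of genes with lower counts at stage 34 than at stage 26 in uninjected embryos, and already low in morphants at stage 26. *avpr1a*, the vasopressin receptor, had 6.94, 5.46 and 9.11 at stage 26 and 18.5, 19.4 and 10.7 at stage 34 in morphants, where its change was not called, and 1253, 809.9 and 1334 at stage 26 and 72.4, 71.3 and 57.8 at stage 34 in uninjected embryos. Its difference was 5.21 ± 0.63 from uninjected (edgeR adjusted p = 7.9e-05) and 5.04 from cMO embryos. *emilin3*, an extracellular matrix glycoprotein known from the zebrafish notochord sheath, had 139.8, 201 and 147 at stage 26 and 277, 201 and 178 at stage 34 in morphants and 9390.1, 7243 and 11153 at stage 26 and 1593, 1296 and 2166 at stage 34 in uninjected embryos. It differed by 2.85 ± 0.29 from uninjected (edgeR adjusted p = 1.5e-05) and 2.36 from cMO embryos. *ankrd63* had 1.98, 4.37 and 4.55 at stage 26 and 12, 26.2 and 13.9 at stage 34, against 134, 191 and 187 at stage 26 and 40.1, 41.7 and 78.2 at stage 34 in uninjected embryos, and differed by 3.90 ± 0.58 and 3.63. *chadl*, a leucine-rich repeat protein of the cartilage matrix, had 12.9, 10.9 and 7.97 at stage 26 and 67.6, 58.1 and 67.5 at stage 34, against 447, 369 and 420.0 at stage 26 and 301, 308 and 283 at stage 34, and differed by 3.02 ± 0.27 and 2.76. In morphants *ankrd63* rose by 2.22 (edgeR adjusted p = 0.0016), and *chadl* was higher at stage 34 than at stage 26 in every library. For all 4 genes every morphant library was below every uninjected library of the same stage.

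Other genes of the positive set ended above the level of uninjected embryos in every clutch, but for *tmem45a*, which was below it in frog D. *adc*, named for arginine decarboxylase, had 2049, 3457 and 1359 at stage 26 and 4288, 35539 and 20712 at stage 34 in morphants and 1341, 940.1 and 4026 at stage 26 and 1392, 1719 and 1327 at stage 34 in uninjected embryos, and its difference was 3.61 ± 0.86 (edgeR adjusted p = 0.013) and 3.16 from cMO embryos. At stage 34 frog D had the lowest level of *adc*, and without frog F its difference from uninjected embryos was 2.36 and not called (edgeR adjusted p = 0.27). *upp2*, uridine phosphorylase, had 40.7, 10.9 and 22.8 at stage 26 and 162, 279 and 215 at stage 34, against 90.6, 83.5 and 116 at stage 26 and 109.9, 105 and 86.2 at stage 34, and differed by 3.13 ± 0.53 and 3.31, lower in every morphant library at stage 26 and higher at stage 34. *tmem45a* had 123, 120.2 and 96.8 at stage 26 and 134, 468 and 271 at stage 34, against 392, 377 and 435 at stage 26 and 151, 169 and 172 at stage 34, and differed by 2.60 ± 0.40 and 2.03. *wnt8a*, a Wnt ligand of the early posterior mesoderm, fell in both: it had 298, 199 and 238 at stage 26 and 34.3, 91.1 and 53.5 at stage 34 in morphants and 287, 198 and 323 at stage 26 and 5.97, 9.56 and 11.3 at stage 34 in uninjected embryos, alike at stage 26 and higher in every morphant library at stage 34, a difference of 2.89 ± 0.51 and 2.30. At stage 34 frog E was the highest of the 3 clutches for *avpr1a*, *ankrd63*, *adc*, *upp2*, *wnt8a* and *tmem45a*, and frog D for *chadl* and *emilin3*.

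The negative set held muscle, kidney and metabolic genes whose rise was missing or smaller, and presomitic genes whose fall was larger. *des.2*, a desmin of muscle intermediate filaments, had 22.8, 12 and 26.2 at stage 26 and 14.8, 30 and 21.4 at stage 34 in morphants and 12.8, 18.4 and 15.8 at stage 26 and 595, 714 and 854 at stage 34 in uninjected embryos. It was alike at stage 26 and lower in every morphant library at stage 34, a difference of -5.42 ± 0.41 (edgeR adjusted p = 4.6e-07) and -5.33 from cMO embryos. *acta1*, skeletal muscle alpha-actin, had 29.7, 54.6 and 34.2 at stage 26 and 40.8, 50.4 and 47.1 at stage 34, against 27.4, 16.3 and 12.8 at stage 26 and 274, 559.8 and 588 at stage 34, and differed by -4.34 ± 0.46 (edgeR adjusted p = 1.6e-05) and -4.35, the morphants being higher at stage 26 and lower at stage 34 in every clutch. *slc12a3*, the thiazide-sensitive sodium chloride cotransporter of the distal kidney tubule, had 17.8, 25.1 and 15.9 at stage 26 and 135, 125 and 60 at stage 34, against 6.4, 9.76 and 5.92 at stage 26 and 647, 702 and 355 at stage 34, and differed by -3.85 ± 0.47 and -4.18. *rgn*, regucalcin, had 156, 432 and 635 at stage 26 and 674, 522 and 509.6 at stage 34, against 55.8, 71.6 and 61.1 at stage 26 and 1089, 1059.6 and 781 at stage 34, and differed by -3.44 ± 0.48 and -2.97. *hebp2*, a heme-binding protein, had 717, 1933 and 3204 at stage 26 and 2191, 2510.2 and 2483 at stage 34, against 118, 184 and 144 at stage 26 and 2074, 1803 and 1829 at stage 34, and differed by -3.36 ± 0.39 and -3.41. For *slc12a3*, *rgn* and *hebp2* every morphant library exceeded every uninjected library at stage 26, and at stage 34 every one was lower for *slc12a3* and *rgn* and higher for *hebp2*. *fabp2*, the intestinal fatty acid-binding protein, differed by -3.59 ± 0.74 and -3.63, with exons that overlap another gene.

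Of the presomitic genes, *mespb* had 35.7, 21.8 and 35.3 at stage 26 and 0, 0 and 1.07 at stage 34, against 101, 99.8 and 112 at stage 26 and 17.9, 10.4 and 12.5 at stage 34 in uninjected embryos, and *msgn1* had 27.8, 12 and 18.2 at stage 26 and 0.926, 0 and 1.07 at stage 34, against 490.3, 442 and 567 at stage 26 and 89.5, 117 and 166 at stage 34. Both were lower in every morphant library than in any uninjected library of the same stage. The fitted differences from uninjected embryos were -3.19 for *mespb* (edgeR adjusted p = 0.018) and -2.66 for *msgn1* (edgeR adjusted p = 0.033), and they depend on the few read pairs left at stage 34. *mespb* was not called without frog D (-2.28, edgeR adjusted p = 0.19) or frog E (-3.07, edgeR adjusted p = 0.11), nor *msgn1* without frog E (-2.33, edgeR adjusted p = 0.17) or frog F (-2.96, edgeR adjusted p = 0.18).

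**Figure D4:**
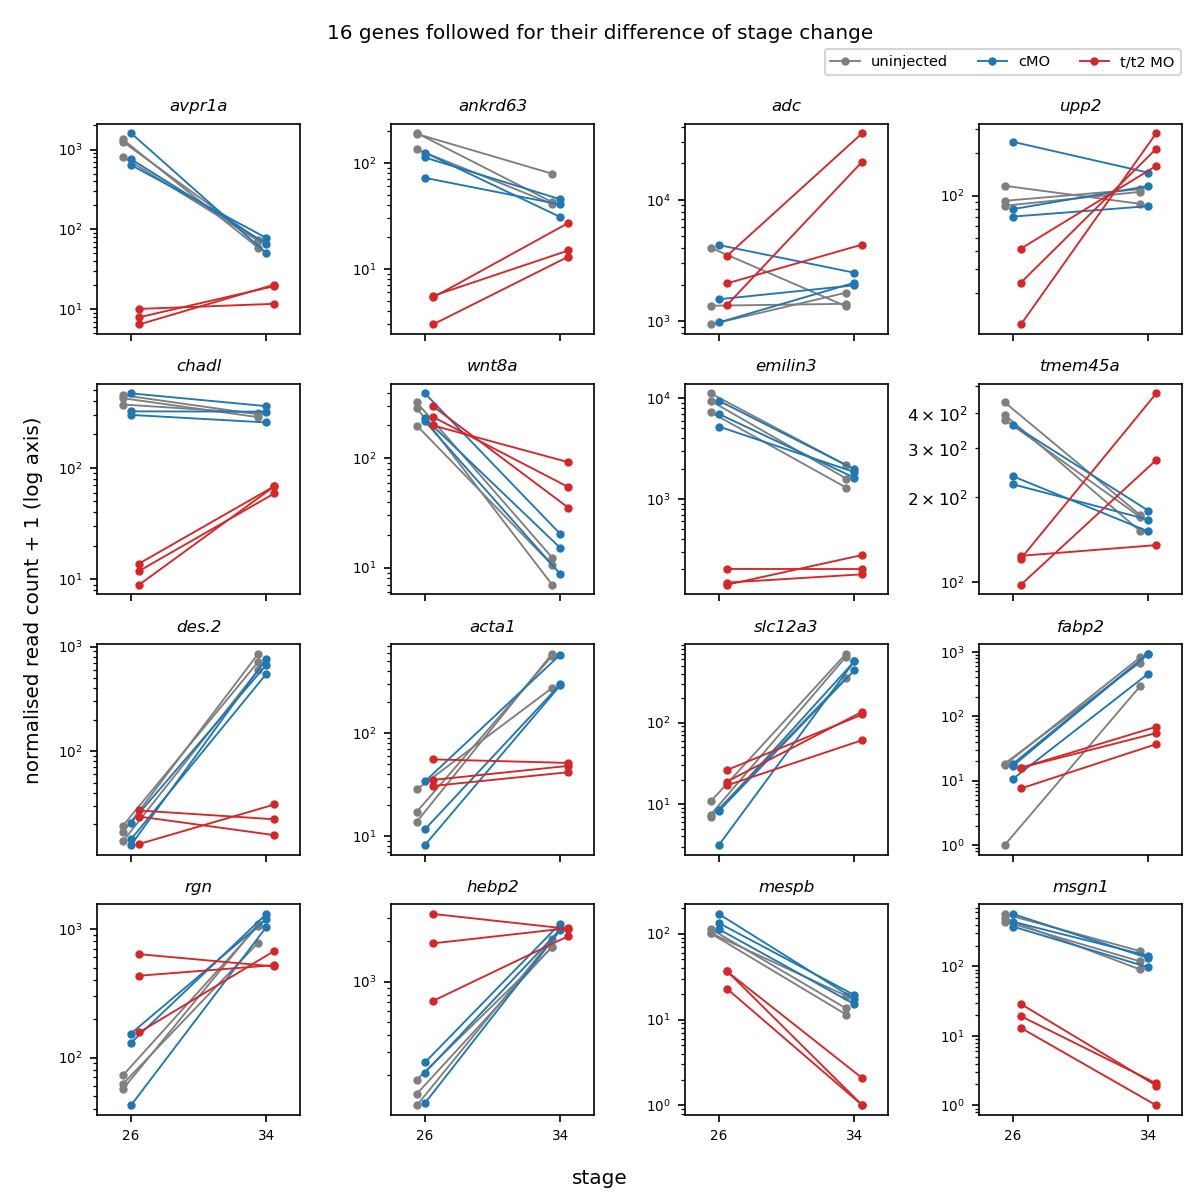
Normalised read count plus 1 (log axis) at stages 26 and 34 for the 16 genes followed for their difference in stage change (8 of each sign, called against both controls, mean count at least 50, clutches not overlapping), with 1 line per clutch for uninjected (grey), cMO (blue) and *t*/*t2* MO embryos (red). The red lines of *des.2* stay between 12 and 30.0 where the grey lines end at 595 to 854, and those of *avpr1a* stay at or under 19.4 where the grey lines start at 809.9 or more.

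List counts from here on are to be read beside the shares over all genes. These were 4.96% higher and 3.57% lower than in uninjected embryos, and 3.84% and 3.00% against cMO embryos. The skeletal muscle list held differences in sarcomere genes. Of 69 members 12 had a lower and 1 a higher change than in uninjected embryos, and 21 a lower and 1 a higher change than in cMO embryos, at medians of -0.38 and -0.40. The larger Gene Ontology term muscle contraction did not show this: of 111 genes 5 had a lower and 8 a higher change than in uninjected embryos (median 0.071), and 5 and 6 against cMO embryos. Besides *des.2* and *acta1*, those lower than in uninjected embryos were *casq1*, the calcium store of the sarcoplasmic reticulum (-1.70), *klhl31* (-1.04), the myosin heavy chains *myh2* (-0.94) and *myh4* (-0.72), *myoz1* (-0.85), the myogenic factor *myog* (-0.80), the troponins *tnnc2* (-0.68) and *tnni2* (-0.61), the light chain *mylpf* (-0.63) and the actin-nucleating *lmod3* (-0.66). *mef2d* was the 1 that was higher (0.85). *casq1* had 452, 253 and 248 at stage 26 and 885, 537 and 489 at stage 34 in morphants and 630.2, 400.1 and 351 at stage 26 and 3626, 2826 and 2231 at stage 34 in uninjected embryos, overlapping at stage 26 and lower in every morphant library at stage 34. *mylpf* had 50772, 38443 and 33013 at stage 26 and 37742, 29903 and 25892 at stage 34 in morphants and 84078, 77085 and 66797 at stage 26 and 99896, 86163 and 79747 at stage 34 in uninjected embryos, lower in morphants at each stage. Cardiac *myh7* also had a lower change (-1.27, edgeR adjusted p = 0.019), while *myh6* did not differ by the test (0.23, edgeR adjusted p = 0.71).

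In the notochord list every difference called against uninjected embryos was positive. Of 26 members 7 had a higher and none a lower change than in uninjected embryos, and 6 were higher and 1 lower than in cMO embryos. *cav1*, caveolin-1, which shapes caveolae, had 749, 758 and 888 at stage 26 and 810.4, 1073 and 1029 at stage 34 in morphants and 6839, 7092 and 7444 at stage 26 and 3976, 4192 and 5053 at stage 34 in uninjected embryos, so it was lower in every morphant library while its log2 change was higher by 0.95 ± 0.16 (edgeR adjusted p = 0.0016). *pltp*, a phospholipid transfer protein, had 2330.1, 2621 and 2428 at stage 26 and 5416, 6632 and 6374 at stage 34 in morphants and 1595, 1643 and 1694 at stage 26 and 1925, 1957 and 2009 at stage 34 in uninjected embryos (1.03 ± 0.11, edgeR adjusted p = 1.6e-05), higher in every morphant library at each stage. The others were *chrd*, chordin, which binds BMPs (1.8), *cav2* (1.04), the collagen *col8a1* (0.87), *loxl1*, a lysyl oxidase (0.74), and *nog*, noggin, which also binds BMPs (0.63). *chrd* had 513, 517 and 519 at stage 26 and 286, 336 and 368 at stage 34 in morphants and 1004, 1117 and 1330.1 at stage 26 and 186, 197 and 237 at stage 34 in uninjected embryos, lower in every morphant library at stage 26 and higher at stage 34. *shh*, the ligand of the notochord and floor plate, with 787, 1065 and 881 at stage 26 and 879, 948 and 932 at stage 34, differed by 0.38 and was not called.

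Among paraxial and tailbud genes 5 had a higher and 4 a lower change than in uninjected embryos, and 4 and 5 against cMO embryos. The lower ones were *mespb*, *msgn1*, *mespa* (-2.03) and *hes5.1*, a Notch target (-0.78), and the higher ones *wnt8a*, *wnt5b*, a Wnt ligand (0.61), *cdx2* (0.74) and *cdx4* (1.31), caudal factors of the posterior axis, and *hes7.1*, of the segmentation clock (1.33). *cdx4* had 2285, 2045 and 1891 at stage 26 and 765, 1027 and 1183 at stage 34 in morphants and 2382, 2167 and 2558 at stage 26 and 447, 372 and 539.7 at stage 34 in uninjected embryos, overlapping at stage 26 and higher in every morphant library at stage 34. *tbx6* had 220.1, 257 and 175 at stage 26 and 45.4, 8.72 and 12.8 at stage 34, against 2547, 2583 and 3099 at stage 26 and 506, 261 and 634 at stage 34 in uninjected embryos, low at each stage and with a difference in change of -0.71 that was not called (edgeR adjusted p = 0.46). Of 38 Hox genes 4 had a higher change (*hoxb1*, *hoxb3*, *hoxb8* and *hoxb9*) and 1 a lower one (*hoxa4*), and 5 and 1 against cMO embryos. The shares over all genes were 4.96% and 3.57%, then 3.84% and 3.00%.

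Of 93 cell cycle genes 42 fell in morphants, 15 in uninjected and 9 in cMO embryos, with medians of -0.55, -0.36 and -0.28. Falls made up 10.9% of all genes in morphants, 12.5% in uninjected and 12% in cMO embryos. For most members of the list the difference itself was not called: 8 had a lower and 4 a higher change than in uninjected embryos, and 6 and 1 against cMO embryos. The lower ones were replication genes for the most part, *rfc2* (-1.05), *rfc3* (-0.59), *cdc45* (-0.81), *mcm2* (-0.80) and *fen1* (-0.62), with the checkpoint kinase *chek1* (-0.69), the centromeric histone *cenpa* (-0.60) and the spindle gene *prc1* (-0.60). The higher ones were *ccnd1*, *wee1*, *mcm3* and *mcm6*. Over all genes 3.57% were lower and 4.96% higher than in uninjected embryos, and 3.00% and 3.84% against cMO embryos. *mcm2* had 10004, 11156 and 9865 at stage 26 and 7369, 7057 and 8925 at stage 34 in uninjected embryos, higher than in every morphant library at stage 34, and the difference was -0.80 ± 0.11 (edgeR adjusted p = 0.00021). *dtymk*, thymidylate kinase, had 1422, 1775 and 1405 at stage 26 and 999, 926 and 938 at stage 34 in morphants, fell by 0.69 on the log2 scale (-0.54, under 1.5-fold, without frog E) and differed by -0.67 ± 0.16 from uninjected (edgeR adjusted p = 0.014) and by -0.74 from cMO embryos (edgeR adjusted p = 0.013).

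In the myeloid and immune lists differences were called mainly against uninjected embryos. In cMO embryos 10 of 30 myeloid genes rose and 1 fell, beside 20.8% and 12% of all genes. In uninjected embryos 2 rose and 10 fell, beside 20.6% and 12.5% of all genes. None of the 30 had a higher and 1 a lower change in morphants than in cMO embryos. Against uninjected embryos 12 had a higher and 1 a lower change. Among the higher ones were the NADPH oxidase genes *cyba*, *cybb*, *ncf1* and *rac2*, the receptor *csf3r*, the leukocyte genes *lcp1*, *lcp2* and *ptprc*, and the transcription factors *spib*, *runx1* and *cebpe*. *spib* had 2703, 2012 and 2236 at stage 26 and 1596, 1285 and 1761 at stage 34 in morphants and 1667, 1276 and 1388 at stage 26 and 429.5, 529 and 485 at stage 34 in uninjected embryos, higher in every morphant library, a difference of 0.96 ± 0.20 (edgeR adjusted p = 0.0051). Of 67 immune genes 17 were higher and 1 lower than in uninjected embryos, and 3 and 2 against cMO embryos. The larger Gene Ontology term inflammatory response also held calls against cMO embryos. Of its 175 genes 21 had a higher and 2 a lower change than in uninjected embryos, and 14 and 2 against cMO embryos. For immune response, with 164 genes, the counts were 15 and 8, then 6 and 8. Over all genes the shares were 4.96% and 3.57%, then 3.84% and 3.00%. *c3* had 109328, 100180.0 and 113833 at stage 26 and 83957, 106040.0 and 67878 at stage 34 in uninjected embryos, below every morphant library, and differed by 1.21 ± 0.17 from them (edgeR adjusted p = 0.00026) but by 0.32 from cMO embryos (edgeR adjusted p = 0.31). *c3ar1*, the receptor for the C3a fragment, had 1689.6, 1517 and 2287 at stage 26 and 2704, 1510.4 and 2501 at stage 34 in morphants and 201, 77 and 210.0 at stage 26 and 160.2, 76.5 and 145 at stage 34 in uninjected embryos, a large gap in level at each stage with no called change in morphants (0.26, edgeR adjusted p = 0.44).

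In the stress response and cell death list 6 of 45 genes had a higher and 1 a lower change than in uninjected embryos, and 6 and 2 against cMO embryos. The shares over all genes were 4.96% and 3.57%, then 3.84% and 3.00%. Among the higher ones were *mcl1* (0.64), *cdkn1a* (0.66), *ccng2* (1.02), *sesn1* (1.06) and *gadd45a* (1.06), and the lower one was *fdxr*. *tp53inp1*, a stress-inducible gene, had 12950.4, 14111 and 17482 at stage 26 and 22448, 19527 and 27226 at stage 34 and rose by 0.62 ± 0.12 (0.55, under 1.5-fold, without frog D), with a difference of 0.37 from uninjected embryos (edgeR adjusted p = 0.19). *sesn1*, a stress-induced sestrin, had 2671, 2372 and 3021 at stage 26 and 5629, 5413 and 7225 at stage 34 in morphants and 2316, 1441 and 2006 at stage 26 and 2008, 1916 and 2135 at stage 34 in uninjected embryos, without overlap at either stage.

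Eye, vessel, cartilage and matrix lists held genes with a lower change in morphants. Over all genes 4.96% were higher and 3.57% lower than in uninjected embryos, and 3.84% and 3.00% against cMO embryos. Of 52 lens and retina genes none had a higher and 9 a lower change than in uninjected embryos, and 4 were lower than in cMO embryos. Among those lower than in uninjected embryos were the photoreceptor and pigment epithelium genes *nr2e3* (-3.12), *rho*, rod opsin (-2.78), *pde6h* (-2.11), *gngt1* (-1.05), *rgr* (-1.06) and *rpe65* (-0.77), and the lens genes *crygn* (-1.41) and *cryba2* (-0.87). *rho* had 5.95, 4.37 and 7.97 at stage 26 and 4.63, 4.84 and 2.14 at stage 34 in morphants and 7.32, 7.59 and 7.89 at stage 26 and 23, 68.7 and 15.9 at stage 34 in uninjected embryos, apart at stage 34 only. Of 32 endothelial genes 7 had a lower change, *lyve1* (-1.93), *cdh5* (-1.09), *tek* (-0.89), *ptprb* (-0.87), *tie1* (-0.72), *rasip1* (-0.69) and *fli1* (-0.59), and 3 a higher one, *lmo2*, *robo4* and *sox17b*. Against cMO embryos the counts were 7 and 1. *cdh5*, the cadherin of endothelial junctions, had 324, 388 and 305 at stage 26 and 1059.6, 885 and 828 at stage 34 in morphants and 584, 468 and 192 at stage 26 and 2553, 2316 and 1956 at stage 34 in uninjected embryos, also apart at stage 34 only. Of 29 cartilage genes 8 were lower, with *acan*, aggrecan (-1.27), *lum*, lumican (-1.55), *dcn* (-1.46) and *lect1*, chondromodulin (-0.90) among them, and 3 higher, against 7 and 3 for cMO embryos. Of 54 matrix genes 9 were lower, among them *fbln5* (-2.80) and *fbn1* (-0.87) of elastic fibres and the basement membrane collagens *col4a1* (-1.15) and *col4a2* (-0.65), and 5 higher, among them *lox* (1.54) and *col5a1* (0.68), against 11 and 5 for cMO embryos.

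The remaining lists had few such genes. Of 39 pronephros genes 3 were lower, *slc12a3*, *fxyd2* (-1.94) and *slc12a1*, the bumetanide-sensitive cotransporter (-1.46), which had 669, 633 and 537 at stage 26 and 288, 257 and 258 at stage 34 in morphants and 1110.4, 697 and 1088 at stage 26 and 1253, 1248 and 896 at stage 34 in uninjected embryos, and 3 higher, *osr1*, *pax2* and *slc13a3*. Of 43 endoderm and liver genes 4 were lower, *fabp1* (-1.23), *fabp2*, *serpina1* (-1.85) and *f2*, prothrombin (-0.94), and 5 higher, *cdx2*, *sox17a*, *sox17b*, *tf* and *apoa1* (0.86). *pck1* rose more in morphants than in uninjected (2.47 ± 0.47, edgeR adjusted p = 0.0033) and cMO embryos (3.51 ± 0.48, edgeR adjusted p = 0.00033). *pck1* had 780.2, 913 and 1527 at stage 26 and 5318, 7566 and 6121 at stage 34 in uninjected embryos, and at stage 34 every morphant library was above every uninjected library. The counts of higher and lower changes against uninjected embryos were 2 and 1 of 33 for heart, 3 and 1 of 29 for red blood cells, 4 and 2 of 91 for neurons, 3 and 1 of 42 for neural progenitors, 0 and 0 of 33 for glia and crest, 2 and 0 of 21 for pigment cells, 3 and 0 of 30 for hormones, 0 and 1 of 44 for multiciliated cells, 3 and 2 of 46 for epidermis, and 0 and 1 of 77 for ribosomal proteins. These shares are to be read beside 4.96% and 3.57% over all genes. Against cMO embryos the counts were 2 and 2 for heart, 3 and 0 for red blood cells, 2 and 4 for neurons, 3 and 2 for neural progenitors, 1 and 4 for pigment cells, 1 and 0 for hormones, 1 and 1 for multiciliated cells, 1 and 2 for epidermis, 1 and 0 for ribosomal proteins, 2 and 3 for pronephros and 2 and 3 for endoderm and liver. The shares over all genes were 3.84% and 3.00% there. These counts are small, and no direction of a list is read from them. The pigment genes lower than in cMO embryos were the melanosome genes *mlana* (-0.94), *tyrp1* (-0.96), *gpr143* (-0.68) and *pmel* (-0.61), and *mitf*, the transcription factor of pigment cells, was higher (1.20). No gene of the glia and crest list was called against either. Among the Gene Ontology terms the counts against uninjected and then cMO embryos were 25 and 8, then 15 and 8, of 316 for synaptic transmission, 8 and 14, then 5 and 14, of 207 for visual perception, 15 and 8, then 6 and 8, of 164 for immune response, 21 and 2, then 14 and 2, of 175 for inflammatory response. For heart development they were 15 and 7, then 12 and 5, of 204, somitogenesis 9 and 6, then 7 and 4, of 94, DNA replication 3 and 9, then 1 and 5, of 92, translation 0 and 10, then 3 and 4, of 121, extracellular matrix organization 7 and 9, then 6 and 5, of 130, the apoptotic process 24 and 13, then 18 and 11, of 291.

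**Figure D5:**
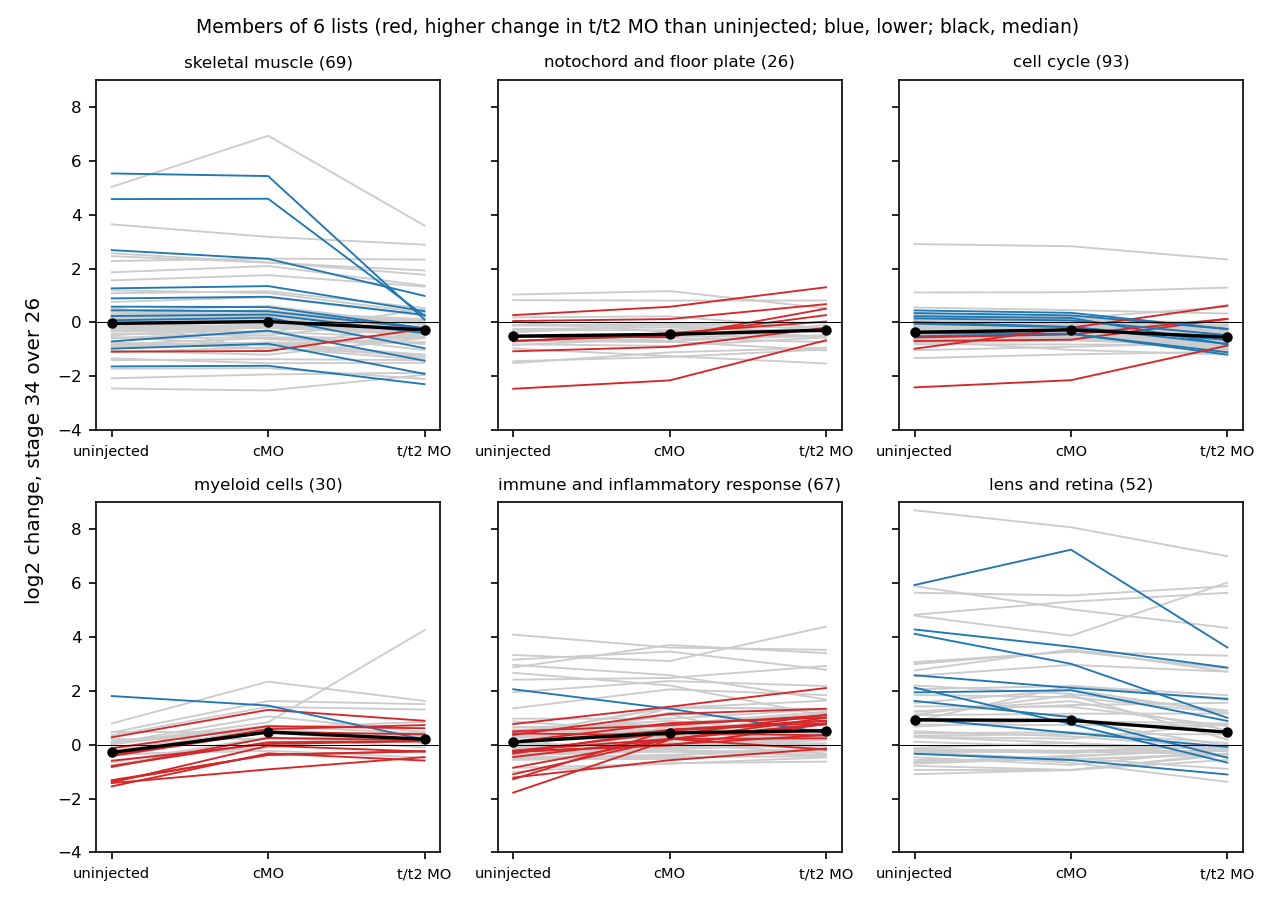
Log2 change from stage 26 to stage 34 of each member of 6 gene lists in uninjected, cMO and *t*/*t2* MO embryos (x axis, left to right), with 1 line per gene. Red and blue lines are genes whose change was called higher or lower in *t*/*t2* MO than in uninjected embryos, grey lines genes not called, and the black line the list median. In the muscle panel 12 lines are blue and 1 red, and in the notochord panel 7 are red and none blue.

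KO embryos were compared to see whether the morphants' difference from their controls was also present in embryos that lack the genes. The excess of morphants over uninjected embryos minus the excess of KO over wild-type embryos was called for 207 genes (1.15%), 114 higher (0.634%) and 93 lower (0.517%), while 2822 genes had an unadjusted p under 0.05. This count moved with single clutches, to 384, 49 and 7 without frogs D, E and F and to 80, 252 and 91 without crosses 1, 2 and 9, and it was 2 when clutches were not paired by a replicate block. KO embryos by themselves had 4997 called genes (27.8%), 3237 higher (18.0%) and 1760 lower (9.79%), and wild-type siblings 3684 (20.5%), 2502 higher (13.9%) and 1182 lower (6.57%). Their changes differed at 39 genes (0.217%), 33 higher (0.184%) and 6 lower (0.0334%). The injected and the mutant embryos came from different experiments and frogs, so MO and experiment cannot be told apart here.

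Of the 16 genes above, 4 had a change in KO embryos that differed from wild-type siblings in the same direction as in morphants. *avpr1a* had 6.04 ± 1.91 (SD, n = 3) at stage 26 and 24.5 ± 9.18 at stage 34 in KO embryos, and its KO change exceeded that of wild-type embryos by 4.03 ± 0.53 (edgeR adjusted p = 8.4e-05). *emilin3* had 149 ± 31.7 and 306 ± 36.1 (2.24 ± 0.33), *chadl* 11.1 ± 3.24 and 55.7 ± 26.1 (2.44 ± 0.38) and *des.2* 26.1 ± 5.02 and 29.7 ± 5.57 (-3.21 ± 0.49). For these genes the difference between both excesses was 1.21, 0.63, 0.61 and -2.18, and none was called (edgeR adjusted p = 0.64, 0.69, 0.79 and 0.18).

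For 8 of the 16 genes the excess was called as different between morphants and KO embryos. The 16 were chosen for a large excess in morphants, which is itself part of this difference. The number of calls among them is therefore no result by itself. *hebp2* had 352 ± 129.8 and 3269 ± 1064 in KO embryos, and the excess differed by -3.74 ± 0.55 (edgeR adjusted p = 0.0018). *rgn* had 75.6 ± 21.5 and 831 ± 169 (-4.48 ± 0.70, edgeR adjusted p = 0.0032), and *slc12a3* 12.9 ± 5.53 and 301 ± 140.2 (-3.29 ± 0.75, edgeR adjusted p = 0.037). *acta1* had 93.1 ± 53.1 and 196 ± 107 (-3.58 ± 0.70, edgeR adjusted p = 0.017). In the other direction *adc*, with 2158 ± 682 and 2298 ± 989 in KO embryos, differed by 4.25 ± 0.96 (edgeR adjusted p = 0.036), and so did *tmem45a* by 2.57 ± 0.53, *wnt8a* by 4.14 ± 0.85 and *upp2* by 2.79 ± 0.68 (edgeR adjusted p = 0.022, 0.022 and 0.058). *wnt8a* fell to 14.7 ± 12.2 in KO embryos, under the 34.3 to 91.1 of the morphants at stage 34. For *ankrd63*, *fabp2*, *mespb* and *msgn1* neither difference was called. *pck1* also had a larger excess in morphants (2.17 ± 0.54, edgeR adjusted p = 0.064).

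Gene lists held few of these calls. Immune genes had 3 higher and none lower, endothelial genes 1 higher and 3 lower, skeletal muscle none higher and 2 lower, lens and retina none higher and 2 lower, and paraxial and tailbud genes 2 higher and none lower. *c3* was among the immune genes, with a difference of 1.17 ± 0.27 (edgeR adjusted p = 0.037). Counts this small beside 0.634% and 0.517% of all genes describe single genes and no list.

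Of the genes that the study also followed by other methods, 3 more were not called. *abi1*, an adaptor of actin regulation, with 6959, 7452 and 7886 at stage 26 and 6738, 6867 and 6277 at stage 34 (-0.18), *actc1*, cardiac and early skeletal muscle actin, with 95593, 86014 and 74195 at stage 26 and 80598, 71278 and 60663 at stage 34 (-0.28), and *hoxd8*, a Hox gene of the trunk, with 342, 281 and 213 at stage 26 and 308, 262 and 249 at stage 34 (-0.03) were the 3. *actc1* had 178851, 170796 and 149293 at stage 26 and 174718, 158540.0 and 158741 at stage 34 in uninjected embryos, above every morphant library at each stage.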

How the data were processed

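Poly(A) RNA libraries were made with an unstranded kit from whole embryos. Per the study's methods, the authors aligned paired reads with Bowtie2 2.1.0 to revised gene models and deposited raw counts of the pairs that matched 1 gene only, so genes with near-identical copies (globins, keratins, actins) lose read pairs. Entries for ribosomal RNA (0.0705 to 0.462% of all read pairs), mitochondrial RNA (0.00592 to 0.0582%) and unaligned pairs (27.27 to 34.01%) name no gene and were left out. No 2 libraries had equal counts at more than 18.1% of genes.

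Counts were scaled by TMM and tested in R 4.3.3 with the quasi-likelihood test of edgeR 4.0.16, 2-sided, with p-values adjusted by Benjamini and Hochberg's method across every gene that had a count. Calls needed a false discovery rate of 10% or less, 1.5-fold or more, and a normalised count that averaged over 7 in uninjected, cMO, wild-type and heterozygous embryos. The 18 uninjected, cMO and *t*/*t2* MO libraries were fitted together with 6 groups and the frog as a block, and all 36 libraries with 12 groups and the clutch as a block for the comparison with KO embryos. The frog pairs the stages by its label, and libraries of a frog deviated together (r across genes 0.322, 0.254 and 0.441). The mean between frogs was -0.17. That value largely follows from taking deviations from group means of 3 frogs and is no separate evidence. The fit of the 18 libraries was also run on simulated counts, for the stage change in morphants, that in uninjected embryos and their difference. The comparisons with cMO and KO embryos were not simulated, and the outcome is not reported here. Alternatives were DESeq2 1.42.0, other scalings, other count filters, no block, the 6 libraries alone, a threshold of 1% and leaving out each clutch. A floor of 3 read pairs was chosen for genes near 0, at depths from 30225504 to 52401214 read pairs assigned to genes.

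Named genes were the 8 called genes of each direction with the highest level among those with at most 3 read pairs in every *t*/*t2* MO library of the other stage, the 10 largest called rises and falls with a mean of at least 10 at the lower and 50 at the higher stage and 1 direction in 3 of 3 clutches, the 8 largest differences of each sign called against both uninjected and cMO embryos, with a mean of at least 50 and clutch-wise changes that did not overlap those of uninjected embryos, the 2 largest rises and falls of each list, *t*, *t2* and genes the study followed, and the 5 highest counts at each stage. Other list members are named because their difference was called, so they were chosen after their values were seen. Some genes that these rules name are not reported here. The libraries, gene lists and tests were chosen with earlier results of these data known.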

Additional observations from a re-analysis of the deposited data

Results flagged for a closer look

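The stage change of *t*/*t2* MO embryos differed from that of uninjected embryos at 1534 genes and from that of cMO embryos at 1229, by the test of the difference itself. The difference between the excess of morphants and the excess of KO embryos was called for 207 genes.

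Single genes that differed from uninjected embryos by the same test had a higher log2 change by 5.21 (*avpr1a*), 3.90 (*ankrd63*), 3.61 (*adc*), 3.13 (*upp2*), 3.02 (*chadl*), 2.89 (*wnt8a*), 2.85 (*emilin3*) and 2.60 (*tmem45a*). The difference was -5.42 for *des.2*, -4.34 for *acta1*, -3.85 for *slc12a3*, -3.59 for *fabp2*, -3.44 for *rgn*, -3.36 for *hebp2*, -3.19 for *mespb* and -2.66 for *msgn1*.

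Some entries of the count table that name no gene had a higher mean in morphants than in both control groups. Ribosomal RNA took 0.251% of all read pairs in morphants at stage 34, against 0.152% in uninjected and 0.0961% in cMO embryos. Unaligned pairs took 32.4% at stage 26, against 29.8% and 30.3%, and 33.6% at stage 34, against 30.6% and 32.9%. The part of these entries in the stage changes was not tested.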

How the results depend on the processing

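The counts of called genes for stage 34 against 26 in *t*/*t2* MO, uninjected and cMO embryos stayed within 1.5 times under every alternative run, from 4834 to 6175 in morphants, with 5491 by DESeq2, 5570 from the 6 libraries alone and 5205 to 5551 without 1 clutch. The differences between groups moved more. With clutches not paired by a replicate block, 1006 genes differed from uninjected embryos, 660 from cMO embryos and 2 between morphant and KO excess, against 1534, 1229 and 207. At a threshold of 1% the numbers were 505, 247 and 5. Leaving out 1 clutch gave 638 (frog F) to 1837 (frog D) against uninjected embryos, with 829 without frog E, 276 (frog E) to 1491 (frog D) against cMO embryos, with 418 without frog F, and 7 (frog F) to 384 (frog D) against the KO excess, with 49 without frog E, 80 without cross 1 and 91 without cross 9. DESeq2 called 1480 and 1205 for the first and the second and was not run for the third. The split was 46.8% higher with median-of-ratios scaling for the difference from KO embryos, against 55.1%. The cause of these shifts was not tested, beyond the fewer samples and the stricter threshold themselves.

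For 138 named genes the stage change kept its side of the threshold in 1086 of 1104 refits. The direction of genes that were not called was not followed. Of the 16 differences 107 of 112 refits kept their side. The calls were lost for *adc* without frog F, *mespb* without frog D or E and *msgn1* without frog E or F. Without the replicate block none of these stage changes and differences from uninjected embryos lost its call, and no called value among them reversed in any refit. Single genes were not followed in refits of the difference from the KO excess. That difference was called for only 2 genes without the block, so most of its named calls were lost there. It was called for 7 genes without frog F, and which named calls were kept there was not followed. Of 264 refitted list medians 46 moved by more than 1 SD over clutches, and the heart median turned from -0.11 to 0.022 with library totals as the scaling. Folds of genes at or near 0 at 1 stage are limited by depth, with 3 read pairs as the floor.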

Other observations

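43 genes were called in opposite directions over the stages in *t*/*t2* MO and uninjected embryos. *slc23a3*, of the nucleobase and ascorbate transporter family, had 106, 84.1 and 66 at stage 26 and 45.4, 25.2 and 22.5 at stage 34 in morphants and 19.2, 8.67 and 5.92 at stage 26 and 77.6, 83.4 and 45.4 at stage 34 in uninjected embryos, so that the groups crossed (difference -4.12 ± 0.48, edgeR adjusted p = 6.1e-05; -4.46 against the KO excess, edgeR adjusted p = 0.0049). *fbln5*, fibulin-5 of elastic fibres, had 28.8, 39.3 and 72.9 at stage 26 and 25.9, 22.3 and 21.4 at stage 34 in morphants and 2.74, 6.51 and 10.8 at stage 26 and 29.8, 27.8 and 9.07 at stage 34 in uninjected embryos (difference -2.80 ± 0.64, edgeR adjusted p = 0.011). *il1b*, the inflammatory cytokine, had 162, 122 and 123 at stage 26 and 379.7, 177 and 186 at stage 34, against 31.1, 28.2 and 40.4 at stage 26 and 6.82, 26.1 and 5.67 at stage 34, and *mmp13*, a collagenase, 74.4, 59 and 52.4 at stage 26 and 59.3, 166 and 139 at stage 34, against 83.2, 67.2 and 26.6 at stage 26 and 7.67, 26.9 and 14.7 at stage 34. Both rose in morphants and fell in uninjected embryos, but the difference from cMO embryos was not called (0.26 ± 0.47, edgeR adjusted p = 0.87, for *il1b* and 0.82 ± 0.61, edgeR adjusted p = 0.52, for *mmp13*). These genes were chosen after their values were seen.

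Among the 43 were *egln3*, *pfkfb3*, *plod1* and *znf395*, which are known to be induced by low oxygen. A list of 60 such genes, written after their values were seen and therefore given as a description, had 54 members past the filter. In morphants 20 rose and 7 fell (median 0.249), beside 20.5% and 10.9% of all genes. In uninjected embryos 7 rose and 22 fell (median -0.399), beside 20.6% and 12.5% of all genes. In cMO embryos 8 rose and 23 fell (median -0.185), beside 20.8% and 12% of all genes. Of the 54, 22 had a higher and none a lower change than in uninjected embryos, and 18 and 0 against cMO embryos, beside 4.96% and 3.57% of all genes for the first and 3.84% and 3.00% for the second, and nothing is read from these counts, since the list was written with them known. KO embryos had 13 that rose and 11 that fell (median -0.184), beside 18.0% and 9.79% of all genes. The change of 1 was higher than in wild-type embryos, beside 0.184% of all genes.

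The clutches were not alike in this list. The median log2 change in morphants was -0.322 in frog D, 0.393 in frog E and 0.391 in frog F. *egln3*, a prolyl hydroxylase that acts on HIF, had 412, 173 and 80.9 at stage 26 and 210.2, 851 and 637 at stage 34 in morphants and 546, 93.2 and 183 at stage 26 and 70.7, 89.5 and 78.2 at stage 34 in uninjected embryos, with a change that was negative in frog D and positive in frogs E and F (difference 3.29 ± 0.91, edgeR adjusted p = 0.029). *pfkfb3*, a regulator of glycolysis, had 3076, 2286 and 1530.5 at stage 26 and 2141, 5733 and 3381 at stage 34 in morphants and 3079.7, 1820.5 and 2182 at stage 26 and 1085, 1085 and 1141 at stage 34 in uninjected embryos, with changes of -0.52, 1.33 and 1.14 in frogs D, E and F. *plod1*, a lysyl hydroxylase of collagen, changed by -0.71, 1.28 and 1.36 in frogs D, E and F, on the log2(count + 1) scale. *igfbp1*, a binding protein of insulin-like growth factors, changed by 1.05, 1.88 and 1.81 and so rose in 3 of 3 clutches. In cMO embryos *egln3* had 1069, 85.5 and 155 at stage 26 and 85.9, 72.3 and 81.9 at stage 34. *pfkfb3* had 6229, 1592 and 1766 at stage 26 in cMO embryos. For *egln3*, *pfkfb3* and *igfbp1* frog D was thus the highest at stage 26 in morphant, uninjected and cMO embryos. For *plod1* frog F was the highest at stage 26 in uninjected embryos. What sets frog D apart was not tested.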
